A study of Glycine max with 26 samples.

Results

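Late in development a soybean seed fills with maturation proteins, many of them of the late embryogenesis abundant type, which accumulate as the embryo prepares to dry and are known for protecting cell contents during desiccation. Seeds of one age may not reach this stage in step, and 2 pools picked at the same hour could then differ in how far they have come. The transcripts described here are the 150 probe sets whose differences between the 2 pools of a time most closely followed a small set of maturation transcripts. They were chosen in the following way. The mean of each time was subtracted from every probe set with a mean log2 signal above 4, and the remaining deviations of 6 maturation probe sets were averaged into an index. Members are the 150 probe sets with the largest absolute Pearson correlation (r) with that index over 26 arrays, after leaving out named maturation, storage protein, protease inhibitor, lipoxygenase, gibberellin-regulated, bZIP, MYB, aquaporin and galactinol synthase families. Of 16383 probe sets in the table, 11481 were tested, and 50 of the 150 members correlated positively with the index and 100 negatively.

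The seeds were of the cultivar Williams 82 and were taken with their coats 5 weeks after flowering. Light and dark alternated every 12 h at 25 °C during growth, and the plants then stayed in constant light and temperature. There were 13 groups, one every 4 h from 24 h to 72 h of constant light, with 24, 48 and 72 h at subjective dawn and 36 and 60 h at subjective dusk. Each group held 2 samples, and each sample was a pool of 8 seeds from 3 plants hybridised to its own array. All groups share cultivar, age at harvest, entrainment and constant light, and there was no untreated, mutant or light-dark group. Whether the paired pools had plants in common is not stated in the labels. In tests of the 13 times and of dawn against dusk, p-values rest only on the spread among these pools, which may be partly technical. In the fits of a 24 h rhythm and a linear trend, p-values also rest on departures of the time means from the fitted curve. Where the means of the 13 times were fitted on the index, the p-values measure the scatter of these means around the fitted line. A pool mixes embryo and seed coat, and a larger share of one tissue cannot be told apart from more RNA per cell.

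The signals are log2 values, so a difference of 1 is a 2-fold difference. Replicate arrays correlated at r of 0.977 to 0.994 over the tested probe sets, and none held identical values. By their lowest signal the arrays fell into 13 with a low floor (1.54 to 2.04) and 13 with a high floor (2.40 to 3.02), and every time had one of each. This grouping was read from the signals, and no label names an array batch. Array medians ranged from 7.40 to 7.72.

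The index was the mean of 6 transcripts. PM3, PM13 and PM22 carry the symbols of seed maturation proteins, SLE2 that of a soybean late embryogenesis abundant gene, and MAT1 and MP2 stand with them by their symbols alone. Mean signals were 11.71 for PM3, 11.19 for PM13, 12.38 for PM22, 7.42 for MAT1, 7.59 for MP2 and 12.56 for SLE2. None of the 6 is a member, since all belong to the families left out. Seed maturity itself (weight, water content or colour) was not among the measurements, so the index is a level of transcripts and is called the maturation index below.

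Pools of one hour differed widely in the index. At 72 h replicate 1 had 9.28 and replicate 2 had 11.10, a 3.54-fold difference. At 68 h the values were 11.67 and 10.13, a 2.89-fold difference. At 48 h they were 10.69 and 9.64, and at 24 h they were 9.97 and 10.98. These 4 times had the largest gaps, and in 2 of them replicate 1 was the higher pool. The pools of 32 h (11.25 and 11.29) and of 44 h (10.02 and 9.97) were nearly equal. Neither the replicate number nor the floor of the array went with the index beyond the spread of the pairs. Replicate 1 minus replicate 2 averaged 0.10 ± 0.90 (SD, n = 13 pairs, 7 of them above 0; exact two-sided sign-flip permutation test, p = 0.693). Low-floor minus high-floor arrays averaged 0.28 ± 0.86 (SD, n = 13 pairs; the same exact test, p = 0.263). Replicate 1 had the low floor at every time except 64 h and 72 h, so these 2 comparisons largely share one split of the arrays.

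The means of the 13 times also varied. The time mean was lowest at 40 h (9.14, from 9.05 and 9.23) and highest at 28 h (11.64, from 11.93 and 11.34), a range of 2.50 log2 units or 5.65-fold. Their SD over times was 0.69, against an SD of 0.62 between pools of one time. Time means were also high at 32 h (11.27), 60 h (11.22), 36 h (10.91) and 68 h (10.90), and the next lowest after 40 h were at 52 h (9.89) and 56 h (9.93).

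**Figure D1:**
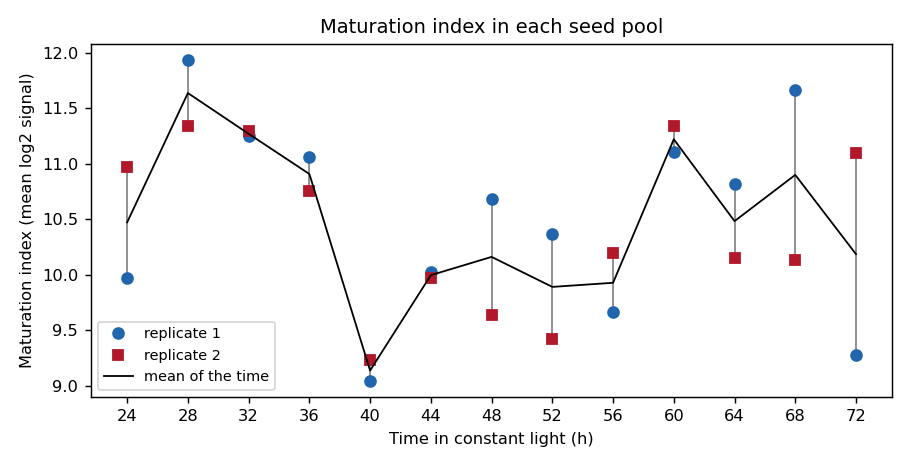
Maturation index (mean log2 signal of 6 probe sets, vertical axis) against hours in constant light, with replicate 1 as circles, replicate 2 as squares, a grey line joining the 2 pools of a time and a black line through the time means. The pools lie farthest apart at 72 h (9.28 and 11.10) and 68 h (11.67 and 10.13), and the time mean is lowest at 40 h (9.14) and highest at 28 h (11.64).

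Every r below was used to choose the members and is given as a description. In the positive group r ran from 0.76 to 0.99 with a median of 0.83, and in the negative group from -0.90 to -0.76 with a median of -0.79. Over the 11475 tested probe sets outside the index the median r was -0.22, and 71.9% of them were negative. This background depends on the scaling of the arrays. With array medians subtracted the median r was 0.03 and with quantile normalization -0.003, and each member kept the sign of its r on both scales. On the scale with medians subtracted all 50 positive members stayed among the 150, but only 26 of the 100 negative members did, and with quantile normalization 50 and 37 stayed. The array with the higher index had the lower median in 8 of the 13 pairs. The last 3 members inside the threshold had r of -0.763, -0.762 and -0.762, and the first 3 outside it -0.761, 0.761 and -0.760.

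A positive member followed the index in a median of 10 of the 13 pairs, and a negative member opposed it in a median of 10. Of the positive group 3 probe sets followed it in all 13 pairs, and 1 negative member opposed it in all 13. The 150 came from 143 probe clusters (probe sets whose identifiers share the first number). The annotation gave 39 members 1 symbol each, 2 several symbols and 109 none, and most of the symbols were bare locus numbers. Only 11 probe sets, for 8 genes, carried a name, and 10 of these 11 were positive members.

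The positive members were the more strongly expressed group, with a median mean signal of 7.95, against 6.70 in the negative members and 7.57 over all tested probe sets. A mean signal under 6 was found for 9 of 50 positive members, 36 of 100 negative members and 24.1% of all tested probe sets. Positive members were higher on the low-floor arrays in 46 of 50 cases, by a median of 0.11. Negative members were higher there in 2 of 100 cases and differed by a median of -0.11. Of all tested probe sets 32.3% were higher on the low-floor arrays, with a median of -0.05. These floor differences are made of the same deviations within times that chose the members, and the index itself averaged 0.28 higher on low-floor arrays. The counts are therefore a description and no separate result about the floor. The part of the floor in the choice of members was not tested, but with its effect removed from the deviations 111 of the 150 stayed among the 150 (41 positive and 70 negative).

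The member closest to the index was PGMPM18, whose symbol holds the name PM18, another of the seed maturation protein series. Its symbol does not begin with those letters, so it was not left out with its relatives. PGMPM18 had log2 signals of 7.33 and 8.58 at 24 h, 9.76 and 9.10 at 28 h, 8.84 and 8.94 at 32 h, 8.84 and 8.22 at 36 h, and 6.10 and 6.49 at 40 h. From 44 h on it had 7.46 and 7.24, at 48 h 8.11 and 6.99, at 52 h 8.09 and 7.02, and at 56 h 7.21 and 7.64. It had 8.73 and 8.77 at 60 h, 8.25 and 7.70 at 64 h, 9.53 and 7.57 at 68 h, and 6.48 and 8.81 at 72 h. In all 13 pairs the pool with the higher index had the higher PGMPM18 signal (r = 0.99). LOC547494, a locus without a name in the annotation, followed it nearly point for point, with r = 0.99 and signals of 5.70 to 9.33 (median 7.24), and it too moved with the index in all 13 pairs.

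GSTU18, a glutathione transferase of the tau class, a plant family that joins glutathione to reactive compounds, came next by r. Its name comes from a synonym of LOC547583. Its brightest probe set ran from 10.85 to 13.50 (median 12.36). It had 12.00 and 12.53 at 24 h, 12.35 and 11.26 at 48 h, 13.02 and 11.51 at 68 h, and 10.85 and 12.37 at 72 h. The higher pool was the one with the higher index at each of these 4 times and in 11 of 13 pairs overall (r = 0.95). A second GSTU18 probe set had r = 0.92, and another probe set of the same cluster without a symbol, Gma.1502.2.S1_x_at, had r = 0.93. The 3 may measure the same or closely related transcripts.

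TENA_E, of a protein family known for salvage of the vitamin thiamine, is listed with the synonym PM36 and so also belongs to the maturation protein series by its older name. It ranged less, from 11.44 to 12.62 (median 12.07). Its values were 11.95 and 12.15 at 24 h, 12.02 and 11.68 at 48 h, 12.43 and 11.80 at 68 h, and 11.80 and 12.12 at 72 h. It moved with the index in 12 of 13 pairs (r = 0.89).

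CHS8 encodes chalcone synthase, the enzyme that commits phenylpropanoids to flavonoid and isoflavonoid synthesis, and 3 of its 4 tested probe sets were members. The first of them had 7.73 and 8.37 at 24 h, 9.62 and 9.30 at 28 h, 9.63 and 9.59 at 32 h, and 7.63 and 7.22 at 40 h. It had 8.72 and 7.37 at 48 h, 8.96 and 6.92 at 68 h, and 6.93 and 7.70 at 72 h. It moved with the index in 10 of 13 pairs (r = 0.86), and the other two members had r of 0.83 each. The fourth CHS8 probe set was dim (mean 4.14) and had r = 0.09. All 3 members are of the kind whose probes can match several sequences, so signals of close chalcone synthase copies cannot be told apart.

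SBP65, a biotinylated late embryogenesis protein known from pea seeds, had 10.99 and 11.44 at 24 h, 11.33 and 10.79 at 48 h, 11.76 and 10.74 at 68 h, and 10.98 and 11.33 at 72 h (r = 0.83). It went with the index in 8 of 13 pairs, including these 4. GMIPER1, a synonym of LOC547499, had 7.27 and 7.83 at 24 h, 8.11 and 6.77 at 68 h, and 6.01 and 7.95 at 72 h (r = 0.79). It went with the index in only 6 of 13 pairs, and without 72 h its r was 0.67. CYP74A1, an allene oxide synthase of jasmonate synthesis, had 9.62 and 9.94 at 24 h, 9.80 and 9.29 at 48 h, 9.80 and 9.40 at 68 h, and 9.32 and 9.71 at 72 h (r = 0.77). It too went with the index in 6 of 13 pairs, and without 72 h its r was 0.70.

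TIR1C was the only negative member with a name and belongs to the auxin receptor family of F-box proteins. It ran from 8.15 to 8.70 (median 8.39). It had 8.56 and 8.34 at 24 h, 8.28 and 8.43 at 68 h, and 8.70 and 8.30 at 72 h, in each case the reverse of the index (r = -0.77). It opposed the index in 10 of 13 pairs. With array medians subtracted its r was -0.38 and with quantile normalization -0.49, and on neither scale did it stay among the 150.

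**Figure D2:**
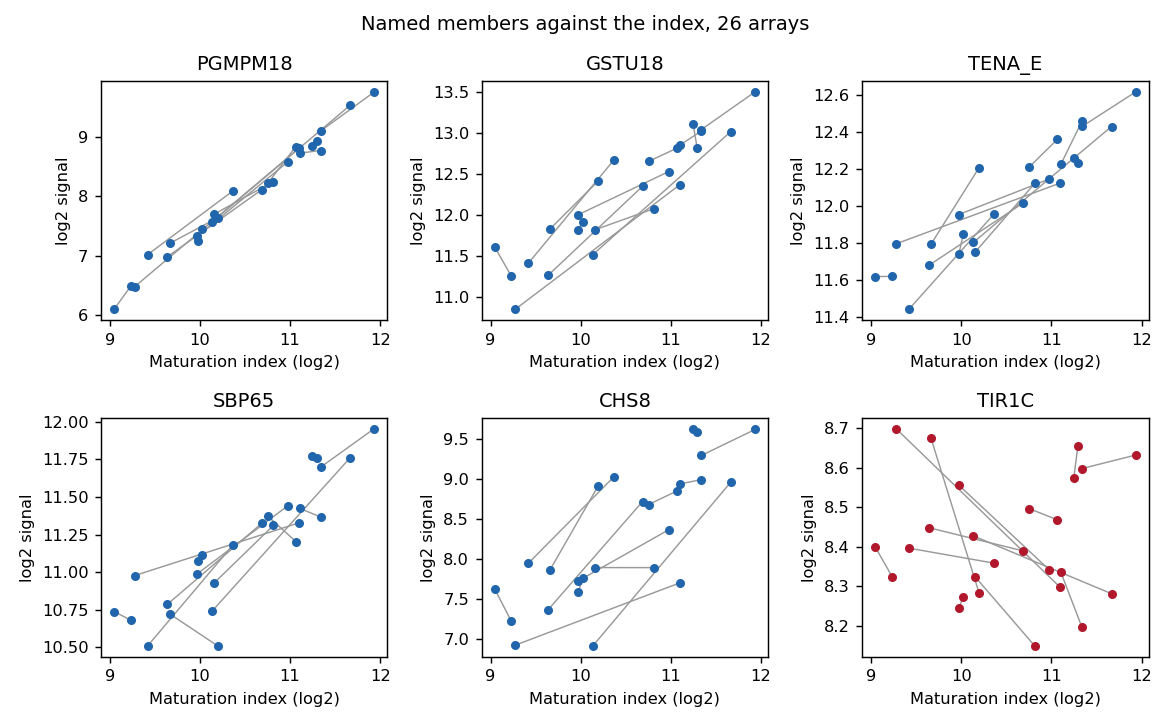
Log2 signal of 6 named members (vertical axes, each with its own range) against the maturation index (log2, horizontal axes) on 26 arrays, where a grey line joins the 2 pools of a time. PGMPM18 (r = 0.99 within times) follows the index along the whole range, CHS8 scatters more widely at one index value, and TIR1C (r = -0.77) slopes down within pairs but not across them.

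The members were chosen on differences within times, and the means of the 13 times took no part in that choice. Whether a member also followed the index from one time to the next was therefore tested by a limma fit of the 13 time means on the time means of the index, with Benjamini-Hochberg adjustment over all 11481 tested probe sets. The slope is the change in log2 signal for a change of 1 log2 unit in the index. Members and index were read from the same arrays, and a time mean still carries the differences of its own 2 pools. The slope alone therefore does not separate a change with time from a difference between the pools that were sampled, and the test of the 13 times against the spread between pools is given further on.

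Most positive members did follow the index over times and few negative members did, 52 of the 150 in all, where 5.01% of all tested probe sets passed in either direction. In the positive group 37 of 50 passed at adjusted p under 0.05 with a slope above 0, where 2.12% of all tested probe sets passed in that direction. In the negative group 15 of 100 passed with a slope below 0, against 2.89% of all tested probe sets. All 50 positive members (49 without 40 h) and 90 of 100 negative members had a slope of the sign of their r, compared with 69.6% of all tested probe sets. Among the tested probe sets outside the members and the index with r below 0, 70.2% had a slope of that sign, and of those with r above 0, 67.0%. With quantile normalization 39 positive and 12 negative members passed, and with array medians subtracted 39 and 11.

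The slopes of the positive group over times were as steep as those within times, and those of the negative group were shallower. The median slope of positive members was 0.42 over times and 0.42 within times. That of negative members was -0.11 over times and -0.33 within times, beside -0.02 and -0.07 for all tested probe sets. As a ratio of the slope over times to that within times, the median was 0.95 for positive members (0.21 to 1.65) and 0.32 for negative members (-0.41 to 1.08). The within-time slope was part of the choice of members and is given as a description.

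PGMPM18 had a slope over times of 1.18 ± 0.05 (SE, 13 time means, limma adjusted p = 4.86e-10). Its time mean was 9.43 at 28 h and 6.30 at 40 h. LOC547494 had a slope of 1.17 ± 0.05 (adjusted p = 1.71e-09). Both slopes were above 1, so these transcripts changed more than the index itself. GSTU18 had a slope of 0.75 ± 0.09 (adjusted p = 3.06e-04), and its second probe set 0.61 ± 0.06 (adjusted p = 5.00e-05). Its time mean was 13.27 at 28 h and 11.43 at 40 h.

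TENA_E had a slope of 0.36 ± 0.04 (limma adjusted p = 2.67e-04) and SBP65 one of 0.47 ± 0.06 (adjusted p = 4.56e-04). PGMPM18, GSTU18 (by its brightest probe set), TENA_E and SBP65 passed under each of the 32 alternative settings tried. Settings that only narrow the members counted are among the 32, and for a single gene they repeat another fit. The 3 CHS8 members had slopes of 0.80 ± 0.18, 0.80 ± 0.16 and 0.71 ± 0.14 (adjusted p = 0.0183, 0.0100 and 0.0110). For the first of these the time mean was highest at 32 h (9.61) and lowest at 72 h (7.32). GMIPER1 had a slope of 0.60 ± 0.12 (adjusted p = 0.0119) and CYP74A1 one of 0.30 ± 0.07 (adjusted p = 0.0237). Without 28 h and 40 h, the times with the highest and lowest index, none of these 3 genes passed. Of CHS8 only the first probe set was followed under alternative settings. The limma adjusted p was 0.271 for CHS8, 0.200 for GMIPER1 and 0.289 for CYP74A1, although their slopes were 0.80, 0.64 and 0.31.

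TIR1C did not pass, with a slope of 0.07 ± 0.05 (limma adjusted p = 0.531) and the opposite sign to its r. It was one of 10 negative members with a slope above 0. The 15 negative members that passed had slopes of -0.50 to -0.15 (median -0.27), and 3 of them had a symbol, each a locus number. LOC100813851 had a slope of -0.41 (adjusted p = 0.00228), LOC100778240 one of -0.27 (adjusted p = 0.0363) and LOC100800659 one of -0.15 (adjusted p = 0.0404). These 3 were named after their values were seen. The negative member with the most extreme r, Gma.4032.3.S1_at without a gene (r = -0.90), had a slope of -0.18 ± 0.05 (adjusted p = 0.0447), and the next without a gene, Gma.1808.1.S1_at (r = -0.87), did not pass (slope -0.11, adjusted p = 0.197).

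The 13 positive members that did not pass had slopes of 0.03 to 0.23. Their median mean signal was 8.61, against 7.55 for the 37 that passed. Counting 1 probe set per probe cluster, 32 of 44 positive and 14 of 99 negative members passed. Without the 4 times whose pools differed most, 35 positive and 9 negative members passed (3.20% of all tested probe sets passed in either direction). Without 28 h and 40 h together, 15 and 4 passed, and 0.706% of all tested probe sets did.

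**Figure D3:**
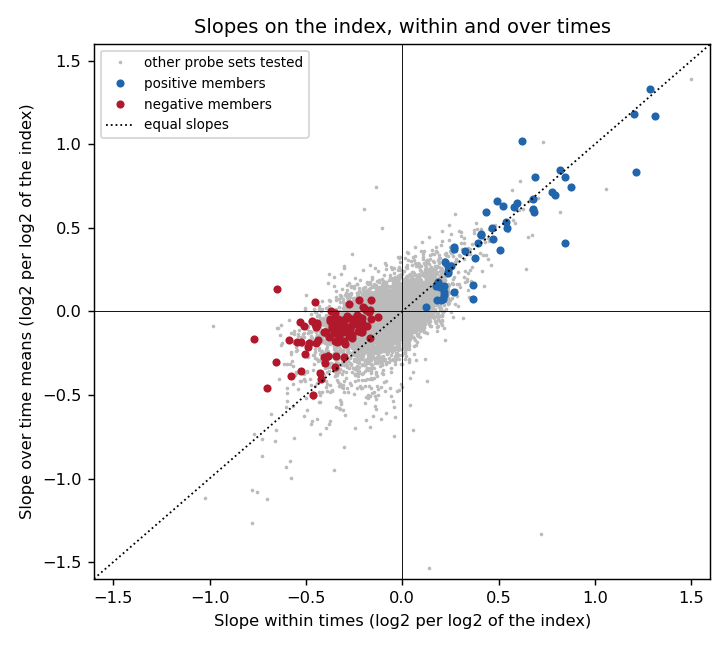
Slope of each tested probe set on the maturation index over the 13 time means (vertical axis) against its slope within times (horizontal axis), both in log2 per log2 unit of the index, with positive members in blue, negative members in red, other tested probe sets in grey and a dotted line of equal slopes. Blue points lie on both sides of the dotted line (median 0.42 over times and 0.42 within), and most red points lie nearer to 0 over times than within (medians -0.11 and -0.33).

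Across the 13 time means the positive members resembled one another more than the negative ones did. The median r over pairs of positive members was 0.73, over pairs of negative members 0.44, between the groups -0.30 and over all pairs of tested probe sets 0.10. These are descriptions over 13 points that share arrays. The highest time mean fell at 28 h for 27 positive members and at 32 h for 14, and the lowest at 40 h for 32 and at 56 h for 7. Among negative members the lowest time mean was most often at 64 h (38 of 100) and the highest at 72 h (22 of 100). The SD of the time means had a median of 0.35 in positive members and 0.17 in negative members, against 0.15 over all tested probe sets.

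**Figure D4:**
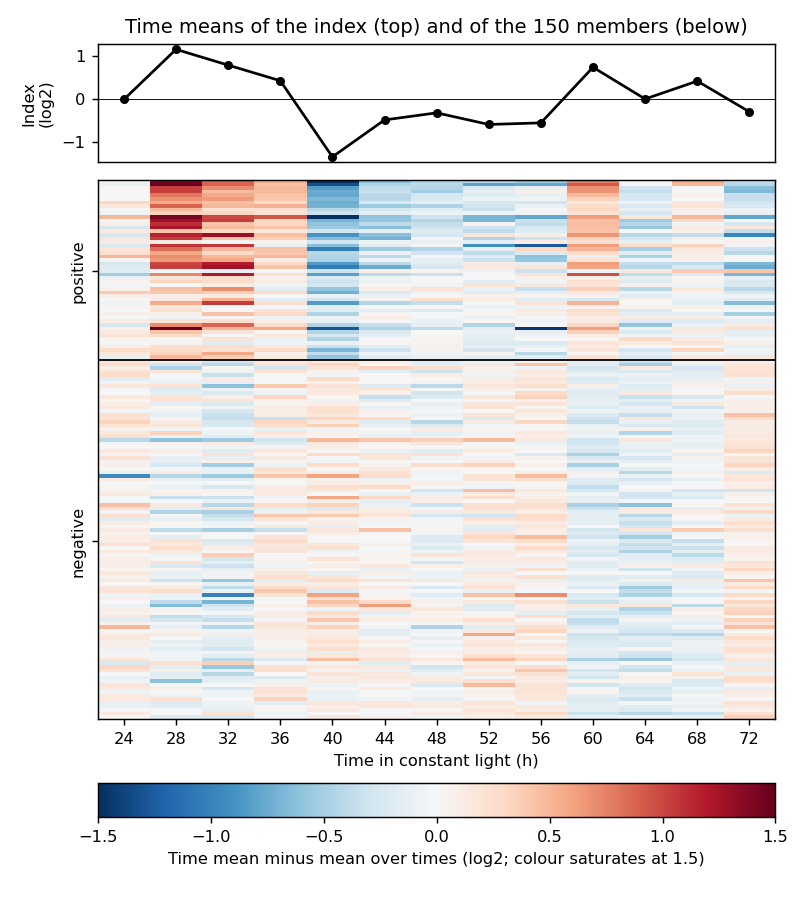
Time means of the maturation index (top panel, log2, mean over times subtracted) and of the 150 members (lower panel, 1 row per probe set ordered by r, colour in log2 around the mean of its row) over 24 to 72 h of constant light. Of the 50 positive members 27 are highest at 28 h and 14 at 32 h, and 32 are lowest at 40 h, while the 100 negative members show fainter colours (median SD of time means 0.17, against 0.35 in positive members).

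The study asked which seed transcripts follow the clock in constant light, and the members were set against time in 4 ways. The error of these tests contains the spread between pools of one time, and the members were chosen for how that spread followed the index. That spread (SD) had a median of 0.31 in positive members, 0.25 in negative members and 0.21 over all tested probe sets. Members share their arrays and were chosen to follow 1 index, so counts of members are not counts of independent observations. A 24 h rhythm was called for 1 member at adjusted p under 0.05, where 1.2% of all tested probe sets were called. This was a CHS8 probe set with an amplitude of 0.74 ± 0.16 log2 (SE, limma adjusted p = 0.0325), and the call was lost without either 24 h array, among other single arrays. At an unadjusted p under 0.05, 14 of 50 positive and 9 of 100 negative members passed, beside 10.3% of all tested probe sets.

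No member passed limma's test of any difference between the 13 times after adjustment (0.0436% of all tested probe sets did). At an unadjusted p under 0.05, 33 of 50 positive members and 11 of 100 negative members passed it, against 7.49% of all tested probe sets. The lowest adjusted p was 0.088 in the positive group and 0.268 in the negative group. No member passed for a linear trend over the 48 h between first and last time (0.0% of all tested probe sets did). At an unadjusted p under 0.05, 6 members passed that trend test, beside 5.33% of all tested probe sets.

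Subjective dawn and dusk differed for no member after adjustment with limma, and 0.0% of all tested probe sets passed. At an unadjusted p under 0.05, 31 of the 150 passed, beside 5.41% of all tested probe sets. Of these, 22 of 50 positive members were lower at dawn than at dusk, where 1.72% of all tested probe sets were, and none was higher at dawn. Of the negative members 7 were higher at dawn (3.69% of all tested probe sets) and 2 lower. By sign alone 47 of 50 positive members were lower at dawn, with a median difference of -0.31, and 79 of 100 negative members were higher at dawn, with a median of 0.11. Of all tested probe sets 44.4% were lower at dawn and 55.6% higher, with a median difference of 0.02. Positive members moved together over the time means (median r of 0.73 over their pairs), so their counts are not independent observations of dawn and dusk.

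The index itself ran the same way. At dawn it ranged from 9.28 to 11.10 with a median of 10.33 (mean 10.27 ± 0.75, SD, n = 6), and at dusk the 4 pools had 11.06, 10.75, 11.11 and 11.34 (mean 11.07 ± 0.24). The dusk pools lie within or just above the top of the dawn range, and the dawn pools include the widely separated pairs of 24, 48 and 72 h. TENA_E ran from 11.68 to 12.15 at dawn (median 11.99) and had 12.36, 12.21, 12.23 and 12.46 at dusk. GSTU18 ran from 10.85 to 12.53 at dawn (median 12.18) and had 12.81, 12.65, 12.86 and 13.02 at dusk. CHS8 ran from 6.93 to 8.72 at dawn (median 7.72) and had 8.85, 8.68, 8.94 and 8.99 at dusk, with 1 dawn pool above the lowest dusk pool. The limma adjusted p of the 3 genes was 0.807 for TENA_E, 0.718 for GSTU18 and 0.631 for CHS8. In other named members the dusk values lay partly or wholly inside the dawn range. PGMPM18 ran from 6.48 to 8.81 at dawn and from 8.22 to 8.84 at dusk, and GMIPER1 from 6.01 to 7.95 and from 7.68 to 8.39. SBP65 ran from 10.79 to 11.44 at dawn and from 11.20 to 11.43 at dusk, and CYP74A1 from 9.29 to 9.94 and from 9.65 to 9.75. The part of the index in these differences was not tested.

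The index holds only 6 maturation transcripts, and the others on the array were set against it in the same fit over times. Of 24 other tested probe sets with maturation or late embryogenesis symbols, 12 passed over times with a slope above 0 and none with a slope below 0. PM24 (slope 0.61 ± 0.05), PM16 (0.49 ± 0.06) and PM1 (0.35 ± 0.05) had the highest r of them (0.91, 0.87 and 0.88). PM23, PM34 and PM37 had slopes of -0.02 to 0.04 and did not pass, and PM30 and PM31 with signals of 14.28 to 15.83 did not pass either (slopes 0.05 to 0.09). The named genes without a slope that passed, and most of those below, were chosen after their values were seen. These gene lists were drawn up by symbol with results of these arrays known, and they are given as counts beside the background above.

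Few other products of seed filling passed. Storage globulins, the bulk of seed protein, passed in 1 of 11 probe sets, BG7S-2 (slope 1.01 ± 0.09, adjusted p = 1.3e-05), a gene of the basic 7S globulin type. The other 10 had slopes of -0.15 to 0.07, among them its relative BG7S-1 (0.04) and the glycinin GY1, whose brightest probe set had the highest signal of the list (mean 16.24, slope -0.02). None of 6 protease inhibitor probe sets and none of 12 of oil synthesis and oil bodies passed. The median mean signal was 14.15 for the globulins, 14.09 for the protease inhibitors and 9.47 for the oil list, against 7.57 over all tested probe sets. The part of signal level in these slopes was not tested.

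The flavonoid list, which holds CHS8, had 26 tested probe sets, of which 6 passed with a slope above 0 and 2 with one below 0. Beside the 3 CHS8 probe sets the 6 were CHI1A, a chalcone isomerase (slope 0.30 ± 0.08), PAL2.1, a phenylalanine ammonia-lyase (0.35 ± 0.09), and IFS2, an isoflavone synthase (0.19 ± 0.05). The 2 were both of CHI1B1, another chalcone isomerase (-0.23 and -0.26), so the list did not move as one. Among 36 probe sets of redox and detoxification enzymes, the list of GSTU18, 5 passed upward and 1 downward. The 5 included GST24 (slope 0.30 ± 0.04) and GSTL7 (0.23 ± 0.05), and the 1 was GSTU3 (-0.44 ± 0.08), a tau-class relative of GSTU18. Genes named in these 2 lists beyond the members were chosen after their values were seen.

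Other lists without members held calls in both directions. The light-harvesting probe sets of CAB3 and LHCP passed downward (4 of 12 in the chloroplast list, slopes -0.59 to -0.28). Lipoxygenases passed downward in 5 of 11, all of LOX7, LOX9 and LOXB1 (slopes -1.26 to -0.76), while the abundant LOX1.1, LOX2 and LOX3 had slopes of 0.03, 0.001 and 0.06 and did not pass. Of the 4 tested probe sets of PCNA, the sliding clamp of DNA replication, 3 passed downward (-0.27, -0.40 and -0.47). In the list of 8 cell division and cytoskeleton probe sets that holds them, TUBB3, a beta-tubulin, passed upward (0.30, adjusted p = 0.0392). Among 9 seed coat and cell wall probe sets, the seed coat gene SCB1 passed downward (-0.999 ± 0.192, adjusted p = 0.00869) and the expansin EXP1 upward (0.38 ± 0.06). The other seed coat markers, Ep (-0.13), HPS (-0.07) and the 2 probe sets of PRP2 (0.28 and 0.26), did not pass, so the list held no common direction. The part of a shifting seed coat share in the members was not tested.

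**Figure D5:**
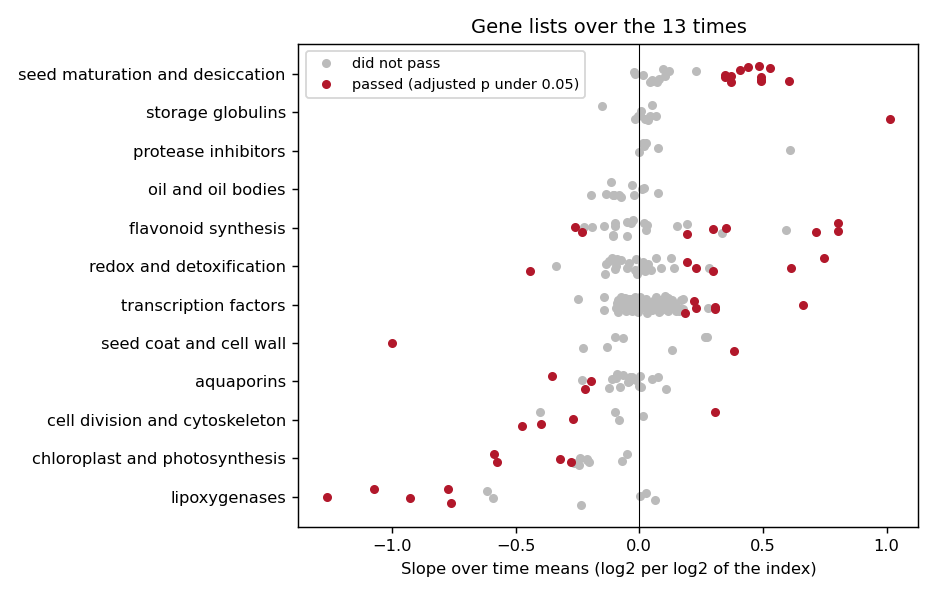
Slope over the 13 time means on the maturation index (log2 per log2 unit of the index, horizontal axis) for the tested probe sets of 12 gene lists, with those that passed at adjusted p under 0.05 in red and the others in grey. The maturation list has 12 red points, all above 0, the lipoxygenases 5, all below 0, and the storage globulins 1 (BG7S-2, 1.01).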

How the data were processed

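Soybean seed RNA was measured on 26 single-colour arrays. The authors deposited normalized log2 signals, 1 per probe set and array, made with GCRMA per the submitters' processing notes. Version and filters: not given in the sources used here. The lowest signal of an array, its floor, was not the same on all arrays, which can compress dim members. The soybean probe sets of this table may be only part of the array.

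Gene names came from a platform annotation (1 symbol for 5002 probe sets, several for 217, none for 11164), with names of bare locus numbers taken from the first synonym in a RefSeq table. It held no descriptions, so roles are textbook background. No promoter, protein or probe sequence was used here.

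The members, the gene lists and the tests were chosen with earlier results of these data known. Probe sets with a mean log2 above 4 were tested (70.1% of the table, including 162 of the families left out of the members). Models were fitted in limma (version 3.58.1, under R version 4.3.3) by lmFit followed by eBayes, with Benjamini-Hochberg adjustment at 0.05 over all 11481. The association over times was fitted to 13 time means. The 24 h rhythm (cosine and sine, with linear time), the trend, the 13 times and dawn (24, 48 and 72 h, 6 arrays) minus dusk (36 and 60 h, 4 arrays) were fitted to all arrays. The index was compared within pairs by exact sign flips (8192, smallest possible p 0.000244). The number of arrays limits the precision. The fits over times and of the 24 h rhythm were tested on simulated data with independent noise for each probe set and array. The simulation held no deviations shared by the probe sets of a pool, so it does not check the fits against them.

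Genes were named by rule: the index genes, members with a gene name, members called in a test, those at the threshold, the most extreme members without a gene, and up to 3 genes of each list or left-out family by r. Others are marked as chosen after their values were seen, or stand beside a count of 5 or fewer.

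In the main fits replicate numbers were not taken to pair samples across times. Deviations of same-numbered arrays correlated at r of -0.38 to 0.61, above 0.1 in 34 of 78 pairs of arrays (median 0.02). Such correlations cannot show whether same-numbered pools shared plants or handling. For arrays of the same floor group the median r was 0.14, with 45 of 78 above 0.1. Alternatives covered the filter, scaling, variance moderation, blocks, covariates, the makeup of the index, and arrays or times left out. Keeping only members that stay with medians subtracted, 1 probe set per cluster, the members' signs under other scalings, and leaving out 24, 48, 68 and 72 h were added after seeing the data.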

Additional observations from a re-analysis of the deposited data

How the results depend on the processing

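Of 52 members that passed over times (37 positive, 15 negative), 36 to 54 passed with single times left out (lowest without 28 h or 40 h) and 19 without both the times farthest from the median index. With the replicate number as a replicate block 51 passed, and that block gave 2 members with a 24 h rhythm. Under the replicate block 124 of the 150 stayed members. No other count of members called moved under the block. Over all tested probe sets it gave 12 calls for any difference between times, against 5 without it, and 1 trend call, against 0.

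Of the 150, 86 stayed with Spearman correlation, 87 with quantile normalization, 76 with array medians subtracted, and 83 to 143 with single times left out (lowest without 72 h). The cause was not tested. The 24 h rhythm was called for 1 member as reported, for 0 with no filter, 3 with a mean above 6, 3 with quantile normalization, 2 with an intensity trend and robust moderation, 4 with the floor of the array as a block, and 0 to 9 with single arrays left out (9 without 68 h replicate 1, 6 without 52 h replicate 2 or 56 h replicate 1). For any difference between times the counts beside the 0 reported were 1 with robust moderation and 0 to 1 with single arrays left out. With the index deviation as a covariate 8 members had a rhythm, 31 (27 of them positive) differed between times and 8 between dawn and dusk, and this fit removes by construction the spread for which members were chosen. No other setting, and no array left out, gave a member with a trend or a dawn and dusk difference. The index difference between replicates 1 and 2 averaged -0.0179 to 0.262 with single times left out and reversed without 68 h (-0.0179, p = 0.942 by exact permutation). Means below 6 were more frequent in the negative members (36 of 100) than in the positive members (9 of 50). With probe sets of a mean above 6 only, 29 of 41 positive and 12 of 64 negative members passed over times. The part of dim signals in these counts was not tested. In the fit over times CYP74A1 lost its call under 6 settings, the first CHS8 probe set under 4 and GMIPER1 under 2. The 24 h rhythm call of CHS8, on another of its probe sets, was lost under 13 settings.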

Other observations

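Transcription factors, of which the MYB and bZIP families were left out of the members, passed in 1 direction. Of 95 tested probe sets of the list, 6 passed with a slope above 0 and none with a slope below 0, beside 2.12% and 2.89% of all tested probe sets. MYB92 had the steepest slope (0.66 ± 0.07, limma adjusted p = 0.000131, r within times 0.82), followed by GmNAC109 and WRKY52 (0.31 each) and NAC27 (0.23), NAC2 (0.22) and MYB133 (0.19). WRKY52 and NAC27 were dim (mean log2 5.26 and 4.64) and had r within times of 0.06 and -0.07. Among 22 aquaporin probe sets, the water channels of the plasma membrane PIP2-13 (2 probe sets, slopes -0.22 and -0.20) and PIP1-6 (-0.35) passed downward and none upward. GOLS, a galactinol synthase, the enzyme that begins synthesis of raffinose sugars, passed upward (0.78 ± 0.11, adjusted p = 0.000682), and VPE, a vacuolar processing enzyme, did so too (0.17 ± 0.04). Of 18 probe sets of hormone genes 1 passed downward, GASA29 (-0.62 ± 0.16), and of 12 heat shock probe sets 1, HSP90-1 (-0.15 ± 0.04), while none of 7 ribosomal probe sets passed. These genes were chosen after their values were seen, and all belong to lists drawn up with earlier results known.

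The list of sucrose, starch and raffinose genes took in SBP65 and SBPRP by the letters of their symbols only. SBPRP had a slope of -0.48 ± 0.06 (limma adjusted p = 0.000203), the opposite direction to SBP65. No probe set of the list for abscisic acid and dormancy had a symbol that matched among those tested. A probe set without a symbol, Gma.4071.1.S1_at, also named after its values were seen, had the steepest slope of all members (1.33 ± 0.10, adjusted p = 1.36e-06) at a mean signal of 10.79.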
